A study of Rattus norvegicus with 28 samples.

Results

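The genes described here were high in rat neural progenitor cells kept in culture and low in every deep group of samples exposed to spinal cord, whether or not the cord was injured. They were chosen from the measured values. Counts were scaled to 1000000 per library (CPM), 1 CPM was added to each group mean, and genes were kept when culture reached at least 10 and injured cord was under 2 times uninjured cord at weeks 3 and 4. That left 9174 genes after the culture minimum and 7069 after both caps, of 32545 in the table. The 150 with the largest ratio of culture to the highest of the 4 cord groups at weeks 3 and 4 are the members, and they are numbered by that ratio. The rule used 19 libraries. It used none of the 8 libraries of week 2, and it left out injured week 3 replicate 3.

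RNA was sequenced in 28 libraries that carry the label of neural progenitor cells from rat, 4 in each of 7 groups. The groups were injured and uninjured spinal cord at 2, 3 and 4 weeks, and cells under culture conditions. Groups called uninjured carry a spinal cord label with no mention of injury. The labels give no strain, age, time zero, way of exposure or separation of cells from tissue, and leave unsaid whether the 4 samples of a group had different animal or culture origins. P-values here speak only for the spread among these samples, which may be technical. In such bulk samples fewer cells of a type and less RNA per cell cannot be told apart, and neither can a change in the progenitors and a larger share of RNA from surrounding cord.

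Neural progenitors are dividing cells that can form neurons, astrocytes and oligodendrocytes. In culture they are commonly kept multiplying by added growth factors, apart from the matrix, vessels and other cells of the tissue. After a move into spinal cord such cells generally leave the cell cycle and mature, and a culture profile can also carry the response to the medium itself. Which of these programs the members belong to could not be read here. The table gives rat Ensembl gene identifiers without names, and 0 of 32545 identifiers matched the reference tables used here. Progenitor markers, markers of other cord cells, pathway lists, gene positions and gene sequences could thus not be assigned. A total of 4 members are given by identifier and others by their rank.

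Week 2 libraries held 84532 to 446331 counts and all others 2605188 to 6908508, so a count floor of 3 stood at 6.72 to 35.5 CPM in a week 2 library and at 0.434 to 1.15 CPM elsewhere. Injured week 2 replicate 1 was the shallowest and detected 44 of the 150 members. Injured week 3 replicate 3 detected 11544 genes, against 15292 to 15583 in the other 3 libraries of its group. Floors and counting intervals cover counting error only.

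**Figure D1:**
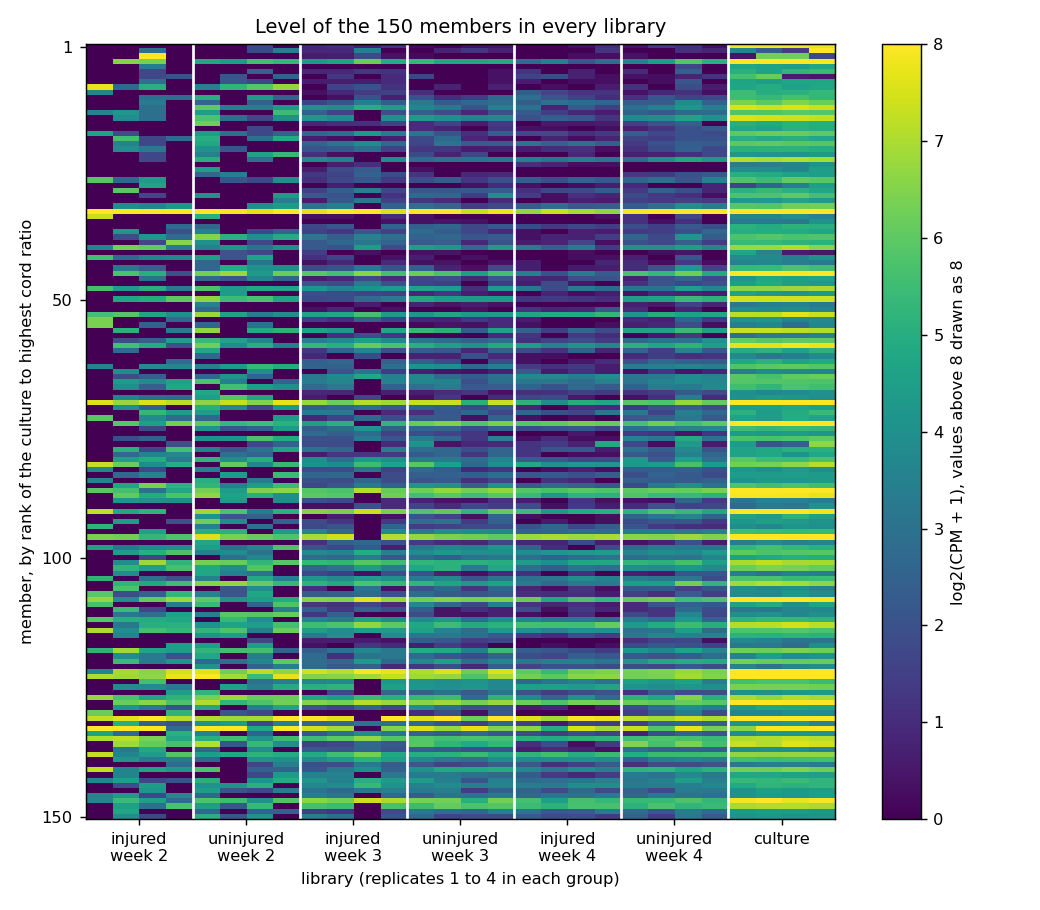
Level of each of the 150 members (rows, in order of the ratio of culture to the highest cord group at weeks 3 and 4) in all 28 libraries (columns, replicates 1 to 4 in each group), as log2(CPM + 1) by colour. All 150 members had counts in all 4 culture libraries, while week 2 libraries detected between 44 (29.3%) and 72.7% of them.

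The member that headed the ranking was ENSRNOG00000012660. It had 0 counts in all 4 injured week 2 libraries, and 0, 0, 2.34 and 0 CPM in uninjured week 2. At week 3 it stood at 0.860, 1.16 and 1.27 CPM in the injured libraries the rule used, and at 0.147, 0, 0.284 and 0.323 CPM in uninjured ones. At week 4 it stood at 0, 0, 0.224 and 1.03 CPM in injured and 0.306, 1.57, 1.15 and 0.256 CPM in uninjured libraries. Culture held 235, 233, 221 and 212 CPM, 225 ± 10.9 (SD, n = 4). It was thus high and even in culture and near 0 in every cord library. Against culture, injured week 2 was at least 91.4-fold lower, if 3 counts are set as the floor for the whole group. With the upper end of an exact 95% Poisson interval in place of that floor, the bound was 74.3-fold. The single count of uninjured week 2 put pooled culture 252-fold above it, with an exact 95% Poisson interval of 45.2 to 9936. Both week 2 groups were called lower than culture (edgeR adjusted p = 1.38e-13 in injured and 7.31e-13 in uninjured cord). The call held under each of 14 alternatives in both. The culture libraries, on the other side of this and later tests against culture, helped choose the members. Only the cord side is thus free of the rule. Culture also contributes to the filter on low counts, which this member passed.

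Over the 150 members, the ratio of culture to the highest cord group ran from 107.8 to 2.30, with a median of 3.93. It was over 10 for 14 members, over 5 for 61 and under 3 for 45. With 1 CPM added the ratio cannot pass the culture level plus 1, so it ranks members by culture level as well as by what is left in cord. The last 3 members had ratios of 2.31, 2.31 and 2.30, and the first 3 genes outside 2.29, 2.28 and 2.27, so the list ends in a continuum. These values chose the members and are given as a description.

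Culture levels of the members ran from 9.20 to 2519 CPM with a median of 33.5. Together the members made up 1.45% of all culture counts. Their summed level was 2658 ± 148 CPM in injured week 3 (SD, n = 3), 2670.2 ± 575 in uninjured week 3, 1701 ± 235 in injured week 4, 2569 ± 513 in uninjured week 4 and 14468 ± 446 in culture (SD, n = 4 each). No deep cord library came near the culture sums, which lay between 14056 and 14904 CPM.

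**Figure D2:**
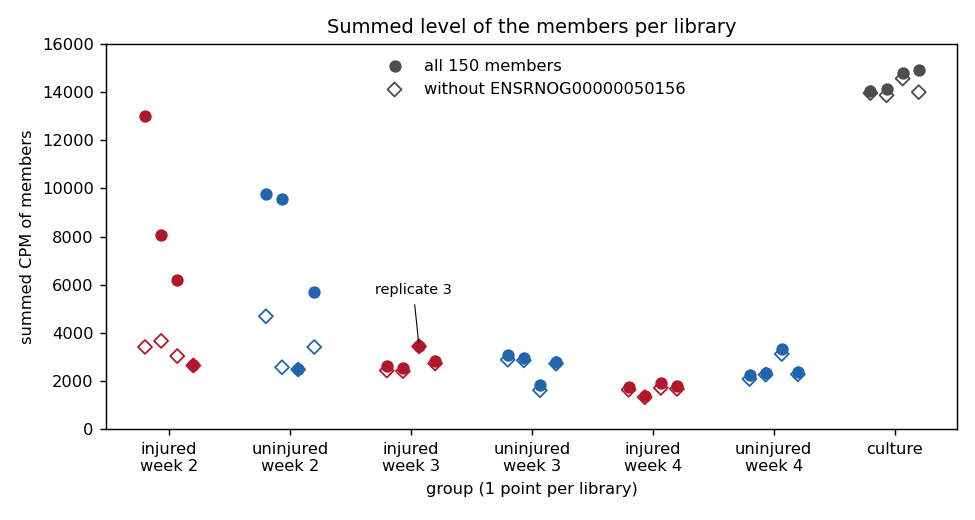
Summed CPM of the members (vertical axis) in each of the 28 libraries by group; filled circles take all 150 members and open diamonds leave out ENSRNOG00000050156. Week 2 sums spread from 2511 to 13013 CPM with that gene and from 2482 to 4693 CPM without it, and culture stood at 14056 to 14904 CPM with it.

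The member with the highest culture level was at rank 33. It had 390.4, 793, 271 and 253 CPM in injured week 2, against 401, 234, 194 and 462 CPM in uninjured week 2. At week 3 it had 202, 268 and 181 CPM in the injured libraries used, against 376, 309, 164 and 221 CPM in uninjured libraries. At week 4 it had 102.7, 161, 122.4 and 97.9 CPM in injured week 4 libraries, against 243, 364, 411 and 386 CPM in uninjured week 4 libraries. Culture held 2562, 2394, 2679 and 2439.6 CPM. Every cord library thus held some of it and none came near culture. Injured and uninjured libraries overlapped at weeks 2 and 3 and not at week 4, and at week 2 the log2 fold change of injured over uninjured cord was 0.32 ± 0.30 (SE) (edgeR adjusted p = 0.583). Rank 5 was the opposite case. It had 0 counts in all libraries of injured week 3, uninjured week 3, injured week 4 and uninjured week 2, and 570 counts over culture at 23.9 ± 2.03 CPM (SD, n = 4). Its remaining cord counts were 4 in injured week 2 and 6 in uninjured week 4, each in 1 library.

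Most members were even among the culture libraries. The coefficient of variation over the 4 had a median of 12.4%, and it was under 25% for 130 members. It was over 50% for 7 members, which are also those with more than 0.5 of their summed culture CPM in a single library. That is 4.67% of the members, near the 4.57% of all genes tested that do so. The genes tested include some at lower culture levels than any member. The sets were not matched on level, so whether the list differs in this was not tested. The 7 members rank 2, 3, 7, 28, 41, 78 and 133. Of these 7, 4 lost their place when group medians replaced means, a check chosen after the data were seen, and 132 of the 150 members kept theirs. In 5 of the 7 at least 1 culture library lay no higher than the highest of the week 3 and 4 cord libraries the rule used.

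ENSRNOG00000059852 at rank 2 is one of them. Week 2 gave 0, 0, 6.72 and 0 CPM in injured and 0, 0, 2.34 and 9.74 CPM in uninjured libraries. Weeks 3 and 4 gave at most 1.42 CPM in the 15 cord libraries the rule used. Culture held 11.7, 3.98, 1.62 and 541 CPM, so replicate 4 alone carried 96.9% of the summed culture level. Its log2 fold change was -6.04 ± 2.06 (SE) in injured week 2 against culture (edgeR adjusted p = 0.0214). Without culture replicate 4 it was -1.52 (edgeR adjusted p = 0.349), the call was also lost without injured week 2 replicate 2, 3 or 4 (adjusted p = 0.062, 0.0601 and 0.0605), and over the alternatives that gave a value the adjusted p ran from 3.18e-19 to 0.349. Rank 3 had 0, 0, 251 and 0 CPM in injured week 2, 0 counts in uninjured week 2, and 0.333, 78.9, 73.8 and 2.32 CPM in culture. Its week 2 counts were thus all in 1 library, and its culture level in a pair of libraries.

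The residual level in cord differed among the members. The highest of the 4 deep cord groups was uninjured week 4 for 57 members, injured week 3 for 52, uninjured week 3 for 30 and injured week 4 for 11. Members under 1 CPM numbered 29 in injured week 3, 32 in uninjured week 3, 55 in injured week 4 and 19 in uninjured week 4, and 12 were under 1 CPM in all 4 of these groups. Median levels were 3.60 CPM in injured week 3, 4.40 in uninjured week 3, 2.15 in injured week 4 and 5.42 in uninjured week 4, against 33.5 in culture. Injured week 4 was thus the group with the least left of the list.

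**Figure D3:**
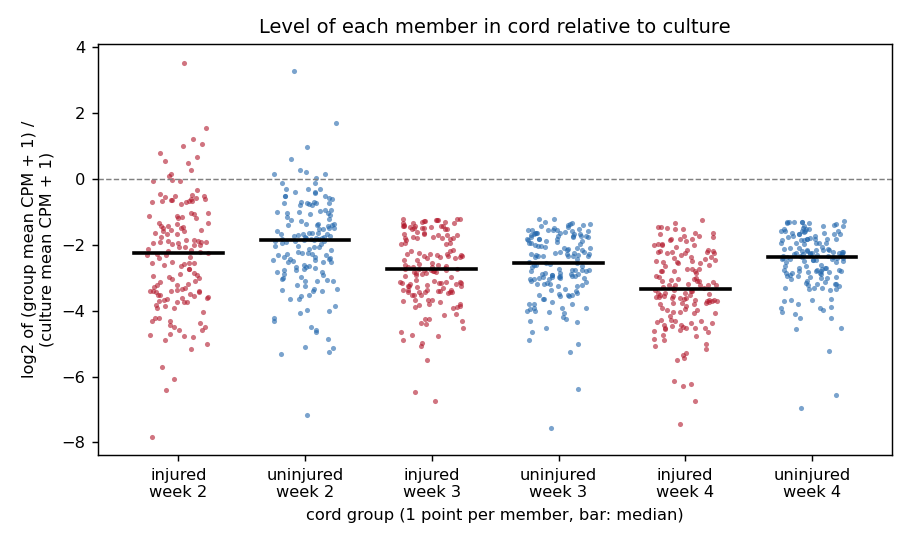
Level of each of the 150 members in the 6 cord groups relative to culture, as log2 of (group mean CPM + 1) over (culture mean CPM + 1), with a bar at the median. In the week 3 and 4 groups the member rule holds all points below 0; in week 2, which the rule did not use, 12 members in injured and 9 in uninjured cord lay above 0.

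Injured was set against uninjured cord within each week. The rule capped this ratio at 2 in both deep weeks, so it set the upper side of these values and nothing is read from their calls. At week 4 the injured over uninjured ratio, with 1 CPM added, had a median of 0.602 over the members and 0.883 over the 7069 genes past the same minimum and caps. It was under 0.5 for 55 members (36.7%) and for 13.2% of those genes. At week 3 the medians were 1.08 and 1.01, and 22 members (14.7%) and 17.6% of the genes were under 0.5. At both weeks 17 members (11.3%) and 8.05% of those genes were under 0.5. The list's median thus lay below equal levels at week 4 and near them at week 3. The difference between the weeks was not tested.

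The edgeR quasi-likelihood test with Benjamini-Hochberg adjustment over 14282 genes, with calls at an adjusted p under 0.05, is given for these weeks as a description. At week 4, 48 of 150 members were called lower and 5 higher in injured than in uninjured cord, where 15.2% and 12.1% of all genes tested were called. At week 3, 25 were called lower and 4 higher, where 25.3% and 20.7% of all genes were called. The caps of the rule held down the members' higher calls but not those of all genes tested, so these shares are not alike. The median log2 fold change of the members was -0.78 at week 4 and 0.01 at week 3, and that of all genes tested was 0.01 at both.

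**Figure D4:**
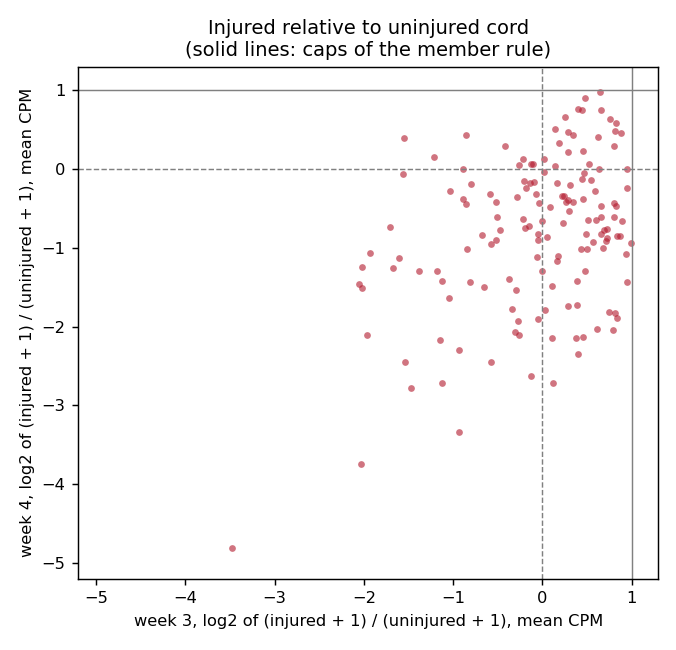
Ratio of injured to uninjured cord for each of the 150 members, as log2 of mean CPM + 1, at week 3 (horizontal) and week 4 (vertical); solid lines mark the caps of the member rule and dashed lines equal levels. At week 4, 30 members lay above equal levels, against 82 at week 3.

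Rank 136 had the lowest ratio at both weeks. It had 2.01, 2.33 and 3.81 CPM in the injured week 3 libraries used, against 58.6, 36.7, 28.7 and 37.1 CPM in uninjured week 3. At week 4 it had 1.09, 2.78, 0.224 and 1.55 CPM in injured and 88.8, 47.6, 82.1 and 47.1 CPM in uninjured libraries. Culture held 158, 136, 198 and 175 CPM. It was picked for these ratios, which the rule also used, so they are a description only. Week 2, which did not choose it, did not show that order, with 0, 112.9, 67.2 and 47.6 CPM in injured and 137, 3.35, 39.8 and 14.6 CPM in uninjured libraries (edgeR adjusted p = 0.617, log2 fold change 0.53 ± 0.54 (SE)).

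Week 2 is the part of the series that did not choose the members, and asks whether they were low in cord there too. The culture libraries on the other side of that comparison did help choose them, so only the cord side is free of the rule. In injured week 2, 74.7% of the 150 members were called lower than culture and 1 higher, where 25.7% and 19.3% of all genes tested were called lower and higher. In uninjured week 2, 66.7% were called lower and 2 members higher, where 22.1% and 20% were called. The members' median log2 fold change was -2.59 in injured and -2.27 in uninjured week 2, against -0.28 and -0.20 over all genes tested. In a refit of the week 2 and culture libraries alone the filter left 82 members. Of these, 53 were called lower in injured and 46 in uninjured week 2, where 13.8% and 11.5% of the 7181 genes tested were called lower. All 150 members passed the filter on low counts, to which the culture libraries, where they are high, contribute.

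Summed over the members, the level was 7487 ± 4317 CPM in injured and 6891 ± 3465 CPM in uninjured week 2, against 14468 ± 446 CPM in culture (SD, n = 4 each). Without ENSRNOG00000050156, which held much of the week 2 sum, it was 3195 ± 446, 3292 ± 1025 and 14099 ± 316 CPM in the same order. The CPM values can also be set side by side without a model, where a 0 can stand for a level up to the library's floor. All 4 libraries lay below all 4 culture libraries for 68.7% of the members in injured week 2 and for 64.7% in uninjured week 2, where 23.6% and 22.9% of all genes tested did. Of the 9174 genes past the culture minimum, 27.4% did so in injured and 29.6% in uninjured week 2. The reverse, all 4 above, occurred for 0 members in either group, where 9.24% and 10.6% of all genes tested did so. With 1 CPM added, the median member stood at 0.209 of its culture level in injured and 0.277 in uninjured week 2. Members with 0 counts in the whole group numbered 23 in injured and 13 in uninjured week 2. The share of all genes tested with 0 counts was not computed. At the culture level each of the 150 members would have given at least 10 counts, which follows from the culture minimum and the group totals. Over the first, middle and last 50 ranks the median relative levels were 0.0936, 0.184 and 0.350 in injured and 0.142, 0.279 and 0.350 in uninjured week 2.

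Week 2 and low depth coincide in these libraries and cannot be told apart. With all other libraries thinned to the mean week 2 total of 292741 counts, a check chosen after the data were seen, 74 members passed the filter on low counts, to which the culture libraries contribute. Of these, 47 were called lower in injured and 45 in uninjured week 2 than in culture, where 15.6% and 13.3% of the 7978 genes tested were called lower.

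The member at rank 4 is an example of a strong culture gene with a remainder in cord. It had 0, 90.4, 80.7 and 0 CPM in injured week 2 and 26.4, 20.1, 49.2 and 38.9 CPM in uninjured week 2, against 601, 610.4, 581 and 531 CPM in culture. All week 2 libraries lay far below culture, with a log2 fold change of -3.72 ± 0.50 (SE) in injured week 2 (edgeR adjusted p = 2.52e-07). In uninjured week 2 it was -4.18 ± 0.53 (SE) (edgeR adjusted p = 8.8e-08).

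Some members did not keep to the pattern at week 2. The mean level with 1 CPM added exceeded culture for 12 members in injured and 9 in uninjured week 2, and 2 exceeded it in both. Of these, ENSRNOG00000050156 at rank 133 held more week 2 counts than all other members together, 7319 of 14577. It had 9594, 4413, 3152 and 5.95 CPM in injured and 5073, 6997, 28.1 and 2298 CPM in uninjured week 2. Culture held 94.6, 242, 235 and 904 CPM, and the 15 libraries of weeks 3 and 4 at most 208 CPM. In each week 2 group 3 libraries were far above culture and 1 was below it. The log2 fold change was 3.09 ± 1.15 (SE) in injured and 3.16 ± 1.15 (SE) in uninjured week 2 (edgeR adjusted p = 0.0341 and 0.0327). This member was picked for its high week 2 level relative to culture, so these values are a description only. The call was lost in 7 of 14 alternatives in injured and in 6 of 14 in uninjured week 2, with adjusted p up to 0.155 and 0.157. Among these were the fits without culture replicate 1, 2 or 3 in both groups (adjusted p = 0.0752 to 0.0869), without injured week 2 replicate 1 or 2 (0.068 and 0.0546) and without uninjured week 2 replicate 2 (0.109).

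ENSRNOG00000018712 at rank 9 also stood high at week 2 and was picked for that level relative to culture. It had 213, 5.65, 31.4 and 0 CPM in injured and 10.5, 36.8, 58.5 and 102.2 CPM in uninjured week 2, against 25.5, 29.8, 22.7 and 26.5 CPM in culture. The 15 libraries of weeks 3 and 4 that the rule used held at most 2.69 CPM. Week 2 libraries lay on both sides of the culture values, from 34 counts in injured and 59 in uninjured week 2. The log2 fold change against culture was 0.13 in injured and 0.88 in uninjured week 2 (edgeR adjusted p = 0.894 and 0.266), so a difference from culture was not detectable at this depth. The other call above culture was a further member in uninjured week 2, with 10.5, 60.3, 58.5 and 68.1 CPM there, against 14.99, 15.7, 11.7 and 15.2 CPM in culture (log2 fold change 1.71 ± 0.59 (SE), edgeR adjusted p = 0.0169).

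**Figure D5:**
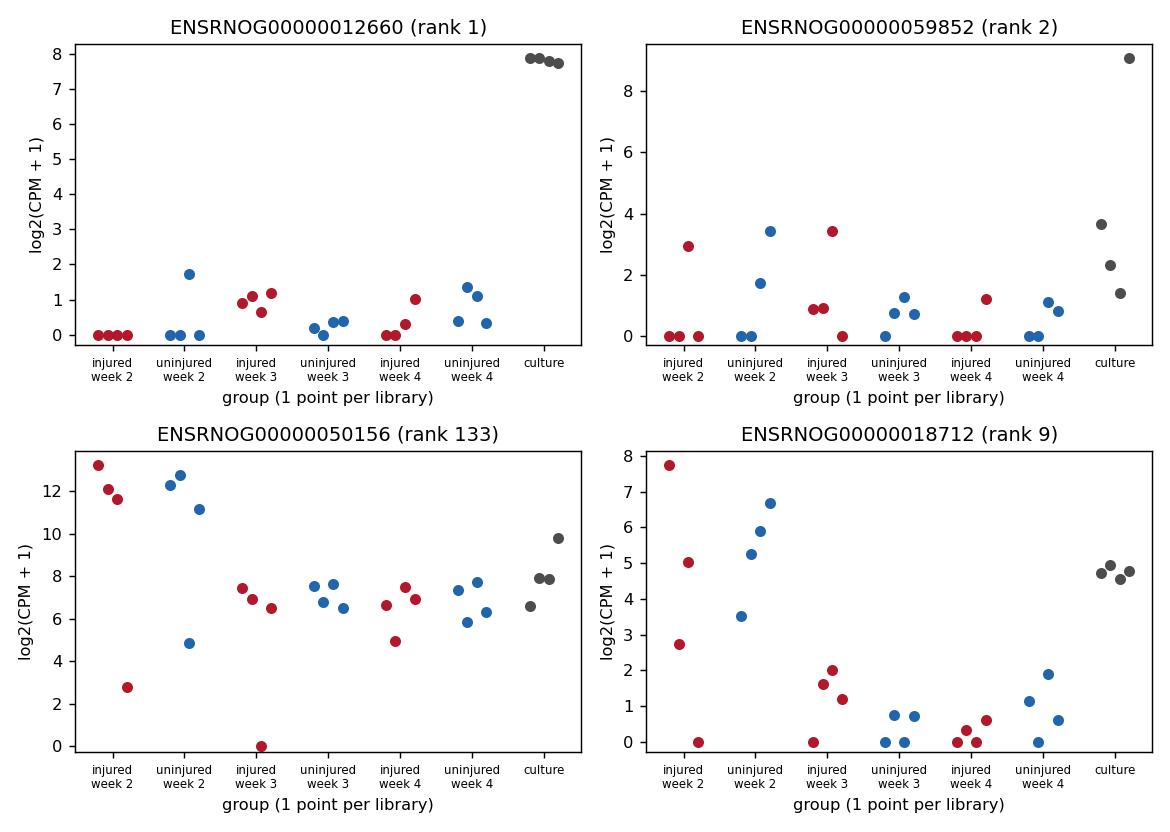
Level of 4 members by library, as log2(CPM + 1), in 7 groups. ENSRNOG00000012660 is high in culture alone, ENSRNOG00000059852 owes its culture mean to 1 library at 541 CPM, and ENSRNOG00000050156 and ENSRNOG00000018712 reach or pass their culture levels in several week 2 libraries.

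Injured and uninjured cord at week 2 form the comparison in which neither side chose the members. Of 150 members, 2 were called lower and 1 higher in injured than in uninjured cord, where 2.16% and 1.2% of all genes tested were called (edgeR adjusted p under 0.05). The members' share was near that background. All 150 passed the filter on low counts, to which the culture libraries, where they are high, contribute. Over the 8 week 2 libraries their counts had a median of 22.5 and were under 20 for 65 members. Of these, 6 had 0 counts and could not be called. At such counts an absence of difference cannot be read from few calls. The median log2 fold change was -0.30 over the members, with quartiles of -1.55 and 0.45, and -0.05 over all genes tested. At an unadjusted p under 0.05, 25 members were lower and 11 higher, 24.0% in all, where 20.4% of all genes passed. DESeq2 called 9 members lower and 8 higher, where 6.84% and 4.95% of the genes with an adjusted p were called. In a refit with edgeR of the week 2 and culture libraries alone, 82 members were tested and 0 were called in either direction, where 0.0418% and 0.0139% of all genes tested were called. Leaving out injured week 2 replicate 3 gave 6 lower, uninjured week 2 replicate 3 gave 4, and injured or uninjured week 2 replicate 4 gave 1, where 2.19% to 2.91% of all genes were called lower in these fits. The higher calls were 3 without injured week 2 replicate 1, 3 or 4, 2 without injured week 2 replicate 2 or uninjured week 2 replicate 1, and 0 without uninjured week 2 replicate 3 or 4, where 0.946% to 2.1% of all genes were called higher.

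The 3 called members rank 77, 22 and 135, named after their values were seen. That at rank 77 had 0, 2.82, 4.48 and 0 CPM in injured and 15.8, 16.7, 51.5 and 29.2 CPM in uninjured week 2, a log2 fold change of -3.74 ± 0.91 (SE) (edgeR adjusted p = 0.0202). The injured libraries all lay below the uninjured ones in CPM. In injured week 2 replicate 1, however, a floor of 3 counts stood at 35.5 CPM. Its 0 thus cannot be placed below the uninjured values of 15.8, 16.7 and 29.2 CPM. Culture held 51.4, 49.7, 54.9 and 63.8 CPM. For rank 22 the values were 0, 0, 2.24 and 0 CPM in injured and 10.5, 0, 23.4 and 38.9 CPM in uninjured week 2, from 1 and 20 counts (log2 fold change -4.47 ± 1.33 (SE), edgeR adjusted p = 0.0499). For rank 135 they were 130.1, 147, 82.9 and 26.8 CPM in injured and 31.6, 46.9, 16.4 and 43.8 CPM in uninjured week 2 (log2 fold change 1.32 ± 0.39 (SE), edgeR adjusted p = 0.0499). Its groups overlapped in 1 injured library.

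Injured week 3 replicate 3 was a further library that the rule did not use. In it, 146 of 150 members lay below all 4 culture libraries, where 34.7% of all genes tested did. Above all 4 lay 1 member, where 55.5% of all genes tested did. The library had 0 counts for 49 members, against 11 to 15 in the other 3 libraries of its group. Among the 47 members with at least 20 counts in each of those 3, it had 0 counts for 15. The library lacked many genes in general, and the part of this in the member values was not tested. The 4 members that did not lie below culture rank 2, 3, 140 and 144. The member at rank 144 stood at 40.1 CPM, against 29.0 to 37.3 CPM in culture.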

How the data were processed

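The deposited values are raw counts, 1 column for each library and 1 line for each gene, not normalized by the authors. The submitters' processing notes name featureCounts 1.5.1, STAR 2.5.1, Trim Galore 0.4.1, Picard, StringTie 1.3.3 and FastQC 0.11.5 with no roles, and the build GRCm38, a mouse build, although the identifiers are rat. Annotation, strand setting and the handling of shared reads were not given in the sources used here. Per the labels' protocols, libraries came from a stranded total RNA kit for very small inputs.

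Levels are CPM of the library total. Tests were edgeR's robust quasi-likelihood test (version 4.0.16, R 4.3.3), after filterByExpr and TMM scaling, on 27 libraries without injured week 3 replicate 3, with 20 residual degrees of freedom, 14282 genes and Benjamini-Hochberg adjustment over them. Fold changes use TMM-scaled sizes, so they are not exact ratios of the CPM means. Each SE given with a log2 fold change is its absolute value over the square root of the test's F statistic. It is not a separate estimate of the model. The fit was also run on simulated data. That outcome is not given here, and no result rests on it. Alternatives were RLE factors, no filter, DESeq2 1.42.0, all 28 libraries, only the week 2 and culture groups, each library left out, and other settings of the rule. The members and lists were chosen with earlier results of these data known. The 11 pathway lists, 8 marker lists and the naming rule by symbol (the 15 largest ratios and others) could not be applied without symbols. Its fallback gave 2 identifiers with the largest ratios and 2 with the highest week 2 level relative to culture among members with at least 20 week 2 counts.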

Additional observations from a re-analysis of the deposited data

Results flagged for a closer look

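Dixon's ratio was computed in 34 groups of 4 libraries, for the summed level of the members and the 4 members given by identifier. In 7 of them 1 library lay outside the spread of the others. About 1.7 would be expected for independent, normally spread values. Many of these values are 0 or come from few counts, and the 4 members were picked for extreme ratios. The 7 can thus not be compared with that number. In 3 of the 7 the other 3 libraries were all at 0, which fixes the ratio at 1. The summed level was 3335 CPM in uninjured week 4 replicate 3 and 2253 to 2363 CPM in the others of that group. ENSRNOG00000012660 stood at 2.34 CPM in uninjured week 2 replicate 3 and at 0 in the others. ENSRNOG00000059852 stood at 541 CPM in culture replicate 4, where the others held 1.62 to 11.7 CPM. The same gene stood at 6.72 CPM in injured week 2 replicate 3 with the others at 0, at 9.68 CPM in injured week 3 replicate 3 with the others at 0 to 0.872 CPM, and at 1.29 CPM in injured week 4 replicate 4 with the others at 0. ENSRNOG00000018712 stood at 213 CPM in injured week 2 replicate 1, the shallowest library, with the others at 0 to 31.4 CPM.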

How the results depend on the processing

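The shares of members called lower than culture at week 2 stayed within 1.5 times with RLE factors, no filter, DESeq2 and all 28 libraries. When 1 library was left out they ran from 70.7% to 77.3% of the 150 members in injured and 61.3% to 63.3% in uninjured cord. Of all genes tested in those fits, 21.6% to 25.5% and 17.7% to 21% were called lower. With only the week 2 and culture groups the members' shares were 35.3% in injured and 30.7% in uninjured cord, where 13.8% and 11.5% of all genes tested were called lower. With the other libraries thinned they were 31.3% and 30%, where 15.6% and 13.3% of all genes tested were called lower. In these 2 fits 82 and 74 members passed the filter on low counts, and the members' shares are of all 150. Members called higher than culture were 0 in either cord with all 28 libraries, where 15.9% of all genes in injured and 16.3% in uninjured cord were called higher. They were also 0 with only those groups, where 17.1% and 17.2% of all genes were. With 1 library left out they were 0 to 1 in injured and 0 to 2 in uninjured cord, where 17.2% to 21.3% and 17.5% to 19.2% of all genes were. Between injured and uninjured cord at week 2, the lower and higher calls were 7 and 4 without the filter (1.47% and 0.926% of all genes), 9 and 8 with DESeq2 (6.84% and 4.95%) and 0 and 0 with only those groups (0.0418% and 0.0139%). The higher calls were 0 with RLE factors, all 28 libraries or thinning (1.2%, 0.822% and 0.389% of all genes). With 1 library left out, 1 to 6 were lower and 0 to 3 higher (1.99% to 2.91% and 0.874% to 2.1% of all genes). These few calls therefore depended on the fit, and the cause was not tested. Of the 150 members, 84 stayed with a culture minimum of 30 CPM, and 137 to 149 with 1 library left out. No paired analysis was possible because the labels give no replicate numbers.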

Other observations

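Week 2 counts of the members were uneven between libraries. Of the 85 members with at least 20 counts over the 8 week 2 libraries, 13 (15.3%) had more than 0.5 of their summed CPM in a single library, against 828 (8.35%) of the 9917 genes tested with as many counts. Only 19 of the 85 (22.4%) had counts in all 8 libraries, against 45.3% of those genes. The gene sets were not matched on level, and the part of depth in this was not tested.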
